A study of Mus musculus with 10 samples.

Results

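The genes described here are 27 genes of cholesterol and fatty acid synthesis, taken by name from a list of 28, out of 20325 genes in a table of expected RNA-seq counts from mouse embryonic stem cells (mESCs). The gene Hmgcs1 of that list is not analysed here. All 27 were among the 13201 genes tested, which had at least 1 CPM (a count scaled to library size) in at least 2 libraries. They divide into 6 enzymes of the mevalonate and isoprenoid steps, 11 enzymes from squalene to cholesterol, 4 regulators and sterol transport proteins, and 6 enzymes of fatty acid synthesis, elongation and desaturation. Polyadenylated RNA was sequenced from 5 lines with 2 libraries each, and the total expected count of a library lay between 15463625 and 21396585.

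Daxx-/- mESCs (strain 129/SvEv) lack DAXX, a chaperone that carries the histone variant H3.3, and Daxx-/-;WT cells, here the DAXX-rescued line, are the same cells given a wild-type Daxx transgene. H3.3 KO mESCs (strain 129 x C57BL/6J) lack H3.3, and this line was given either wild-type H3.3 (H3.3 KO;WT, the WT-rescued line) or H3.3 with the substitutions labelled L126A-L130A (H3.3 KO;L126A-L130A, the mutant-rescued line), designed to bind DAXX but not to be stably held in nucleosomes. The text of the study mostly spells the mutant with another residue at its second position, and the sample labels are followed here. All lines grew without feeders in medium with LIF, 3 µM CHIR99021 and 1 µM PD0325901. Transgenes were tagged, driven by an EF1 promoter, delivered by lentivirus and kept under puromycin, and cells were collected weeks after transduction. No unmodified parental line and no line given an empty vector was among the libraries used here. Transduction and selection therefore cannot be told apart from the transgene where a rescued line is compared with its knockout. Because the Daxx and H3.3 lines differ in strain and derivation, those cannot be told apart from genotype where the knockout lines are compared.

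Cholesterol is built from acetyl-CoA through mevalonate, isoprenoid units, squalene and a series of sterol intermediates, and fatty acids are built from the same precursor by carboxylation, repeated condensation, elongation and desaturation. Most genes of both routes are targets of the sterol regulatory element binding proteins (SREBPs), which INSIG1 holds in the endoplasmic reticulum when sterols are plentiful. Dividing cells, mESCs among them, need both products for new membranes.

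Sequences before the start sites of 4 of the genes are printed because SREBPs act there together with the factors NF-Y and Sp1. The genes are Hsd17b7 and Cyp51, which had the lowest fold changes between the H3.3-rescued lines, Insig1, and Fasn. Fasn had the largest single difference between replicates of a line, within Daxx-/- (log2 −1.05). The sequences are from RefSeq (GRCm38.p6), 5′ to 3′ on the strand of the gene, at chr1:169969242-169969455 (minus strand), chr5:4104747-4104947 (minus), chr5:28071162-28071362 (plus) and chr11:120824548-120824797 (minus). Capitals mark CCAAT, the NF-Y box, on either strand (ATTGG on the opposite one).
Hsd17b7: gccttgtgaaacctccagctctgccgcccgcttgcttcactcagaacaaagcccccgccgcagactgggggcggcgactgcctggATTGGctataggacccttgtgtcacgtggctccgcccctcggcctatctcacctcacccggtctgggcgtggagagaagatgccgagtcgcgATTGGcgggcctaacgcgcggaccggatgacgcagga
Cyp51: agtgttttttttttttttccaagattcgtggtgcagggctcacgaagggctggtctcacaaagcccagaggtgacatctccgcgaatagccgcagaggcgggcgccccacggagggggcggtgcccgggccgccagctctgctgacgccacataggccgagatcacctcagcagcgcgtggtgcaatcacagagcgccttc
Insig1: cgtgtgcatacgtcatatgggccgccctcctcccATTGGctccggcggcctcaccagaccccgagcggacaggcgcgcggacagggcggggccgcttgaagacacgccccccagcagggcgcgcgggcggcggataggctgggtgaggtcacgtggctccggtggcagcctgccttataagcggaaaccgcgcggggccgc
Fasn: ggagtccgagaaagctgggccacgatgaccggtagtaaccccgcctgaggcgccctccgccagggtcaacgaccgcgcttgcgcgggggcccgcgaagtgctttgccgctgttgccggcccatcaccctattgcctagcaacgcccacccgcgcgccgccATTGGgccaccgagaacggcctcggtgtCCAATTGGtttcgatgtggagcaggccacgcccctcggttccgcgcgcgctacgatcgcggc

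The printed stretch of Fasn held 3 CCAAT boxes, of which a pair overlap. The stretches of Cyp51 and Insig1 end 49 bases before the RefSeq start and that of Hsd17b7 36 bases before it, so bases nearer the start are not shown for these genes. Over windows from 250 bases before to 50 bases after a RefSeq start, Cyp51 had 1 CCAAT and Hsd17b7 3. In all, 21 of the 27 genes had such a window, as did 9413 of the genes tested. CCAAT was present for 18 of the 21 (85.7%) and for 43.4% of the tested genes. GGGCGG, the Sp1 box, was present for 17 (81%) against 69.4%, and CACGTG, an E-box, for 4 (19%) against 12%. TCACNCCAC, a form of the sterol regulatory element, was found for 0 of the 21 and for 1.4% of the tested genes, both strands having been searched. Where 1.4% of genes hold it, 0 of 21 does not set these genes apart. The match had to be exact and other forms of the element were not searched, so their presence is not known. These matches describe letters in a window and say nothing of whether a factor is bound.

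The targeted genes were examined first. Daxx was at 82.6 and 72.9 CPM in Daxx-/- cells and at 206 and 206 in DAXX-rescued cells, where it rose (log2 fold change 1.41, SE 0.18, adjusted p 0.0212 by edgeR quasi-likelihood with Benjamini-Hochberg adjustment, higher in 2 of 2 libraries). Its mean was 61.7 CPM in H3.3 KO, 60.8 in the WT-rescued line and 84.2 in the mutant-rescued line, which carry no Daxx deletion by their labels, so its level does not mark the Daxx knockout. H3f3a, which encodes H3.3, was at 492 and 382 CPM in Daxx-/- and 486 and 494 in the DAXX-rescued line but at 5.21 and 10.9 in H3.3 KO, 3.62 and 4.36 in the WT-rescued line and 5.26 and 2.85 in the mutant-rescued line. H3f3b, which also encodes H3.3, was at 509 and 720.1 CPM in H3.3 KO against 313 and 380.2 in Daxx-/-, so its level does not mark the knockout either. In the WT-rescued libraries it was at 204 and 139 CPM, and it fell against H3.3 KO (log2 −1.84, SE 0.26, edgeR Benjamini-Hochberg adjusted p 0.0311), and in the mutant-rescued line it was at 386 and 324 CPM. The mean of neither H3.3 gene was higher in these lines than in H3.3 KO, so the counts do not show the H3.3 transgenes. In the DAXX-rescued line H3f3b was at 116 and 84.4 CPM and had fallen against Daxx-/- (log2 −1.79, SE 0.26, edgeR Benjamini-Hochberg adjusted p 0.0244). Counts per gene do not separate deleted from remaining parts of a gene, or an endogenous transcript from a transgene. Markers of mESCs were high throughout: 10 of 10 markers had counts in every library, with a summed level of 6788 to 10100 CPM and Dppa5a the most abundant.

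Per kilobase of the longest coding transcript, mean levels over the 10 libraries ran from 274 CPM per kb for Scd2, a stearoyl-CoA desaturase, to 6.44 for Hsd17b7, a ketosteroid reductase of the sterol route. Fdps, which makes farnesyl diphosphate, and Acly, which makes cytosolic acetyl-CoA, followed Scd2 at 148 and 142 CPM per kb. At the low end Sc5d, the sterol C5 desaturase, was at 6.52, Tm7sf2, a sterol C14 reductase, at 10.6 and Stard4, a carrier of cholesterol within the cell, at 10.9. Together the 27 genes took 0.706% and 0.627% of all counts in Daxx-/-, 0.675% and 0.794% in the DAXX-rescued line, 0.614% and 0.485% in H3.3 KO, 0.721% and 0.675% in the WT-rescued line, and 0.623% and 0.491% in the mutant-rescued line. The lowest shares were thus those of replicate 2 of H3.3 KO and of the mutant-rescued line.

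Reads of 5 of the genes may be shared with other loci, and their levels are uncertain to that extent. Of the 50-base stretches in the longest coding transcript, 45.9% for Acat2 are also found in its neighbour Acat3, 52.6% for Acaca in Gm5182 and 77.3% for Fdps in Gm43738. For Idi1 30.5% are found in other genes. For Fdft1 it is 30.7%, with Ctsb, which overlaps it on the opposite strand by 774 bases of exon, holding 19.9%, and whether the counting used strand is not given in the sources used here. Each of the other 22 shares less than 5%.

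**Figure D1:**
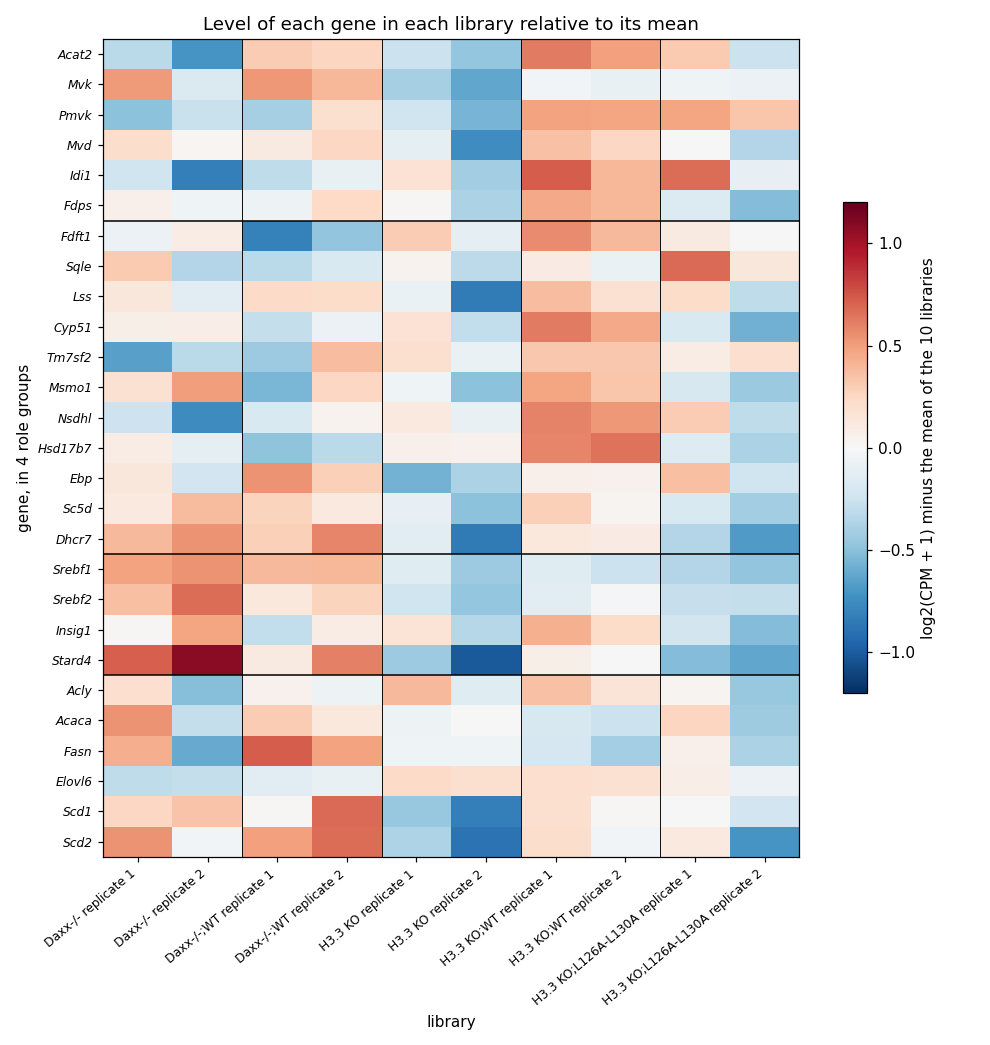
Level of each of the 27 genes (vertical axis, in 4 role groups) in each of the 10 libraries (horizontal axis), as log2(CPM + 1) minus the gene's mean over the libraries, red above and blue below the mean. The median over the genes is lowest in replicate 2 of H3.3 KO (−0.42) and highest in replicate 1 of the WT-rescued line (0.32).

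The plot of levels by library places the lines side by side. Over the 27 genes, the median of log2(CPM + 1) minus each gene's own mean was 0.14 and −0.10 in the libraries of Daxx-/-, 0.05 and 0.24 in the DAXX-rescued line, −0.06 and −0.42 in H3.3 KO, 0.32 and 0.18 in the WT-rescued line, and 0.04 and −0.35 in the mutant-rescued line. The pooled SD of this median within lines was 0.20. The range of the DAXX-rescued line overlapped that of Daxx-/-, and the range of the mutant-rescued line that of H3.3 KO. Both WT-rescued libraries lay above both H3.3 KO libraries.

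Among the mevalonate and isoprenoid enzymes, Acat2, which joins acetyl-CoA units, was at 121 and 92.3 CPM in Daxx-/-, 187 and 181 in the DAXX-rescued line, 127 and 109 in H3.3 KO, 233 and 213 in the WT-rescued line, and 189 and 126.3 in the mutant-rescued line. Each line with a wild-type transgene lay above its own knockout without overlap, whereas the mutant-rescued line overlapped H3.3 KO at its lower library. Pmvk, the phosphomevalonate kinase, was at 31.1 and 36.3 CPM in Daxx-/-, 33.3 and 50.4 in the DAXX-rescued line, 37.2 and 29.7 in H3.3 KO, 62.2 and 61.4 in the WT-rescued line, and 61.8 and 55.6 in the mutant-rescued line. All 4 libraries with an H3.3 transgene were above all others. Idi1, which isomerises isopentenyl diphosphate, was at 128 and 85.3 CPM in Daxx-/-, 122 and 142 in the DAXX-rescued line, 170.5 and 113 in H3.3 KO, 250.1 and 199.9 in the WT-rescued line, and 241 and 141 in the mutant-rescued line. Its replicates in the H3.3 KO and mutant-rescued lines lay further apart than those of the WT-rescued line. The remaining enzymes of this group ranged over the 10 libraries from 21.2 to 47.8 CPM (Mvk, mevalonate kinase), 35.2 to 76.6 (Mvd, which makes isopentenyl diphosphate) and 139.8 to 276 (Fdps).

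In the sterol route, Fdft1, which makes squalene, was at 159 and 178 CPM in Daxx-/-, 94.8 and 120.1 in the DAXX-rescued line, 207 and 154 in H3.3 KO, 247 and 218 in the WT-rescued line, and 180.1 and 166 in the mutant-rescued line. The DAXX-rescued libraries were the lowest of all. Sqle, the squalene epoxidase, was at 251 and 159 CPM in Daxx-/-, 161 and 178 in the DAXX-rescued line, 208 and 162 in H3.3 KO, 216 and 191 in the WT-rescued line, and 324 and 222 in the mutant-rescued line. Only the mutant-rescued line stood apart from the other H3.3 lines, on the high side. Lss, which closes the sterol rings, was at 85.9 and 70.9 CPM in Daxx-/-, 91.6 and 91.3 in the DAXX-rescued line, 74.1 and 43.2 in H3.3 KO, 101 and 88.6 in the WT-rescued line, and 91.5 and 63.1 in the mutant-rescued line. Replicate 2 of H3.3 KO was its lowest library.

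Cyp51, the lanosterol demethylase, was at 161 and 162 CPM in Daxx-/-, 125 and 146 in the DAXX-rescued line, 173 and 124 in H3.3 KO, 237 and 210.4 in the WT-rescued line, and 135 and 103 in the mutant-rescued line. Hsd17b7 was at 30.7 and 26.6 CPM in Daxx-/-, 20.2 and 22.7 in the DAXX-rescued line, 30.1 and 29.9 in H3.3 KO, 43.5 and 45.6 in the WT-rescued line, and 25.6 and 21.9 in the mutant-rescued line. For both genes the WT-rescued libraries were above the other 8. Msmo1 (Sc4mol in the table), a sterol methyl oxidase, was at 171 and 214 CPM in Daxx-/-, 102 and 179.7 in the DAXX-rescued line, 145 and 107 in H3.3 KO, 209 and 189 in the WT-rescued line, and 132 and 110.2 in the mutant-rescued line. Nsdhl, a sterol dehydrogenase, was at 47.6 and 33.3 CPM in Daxx-/-, 49.9 and 58.5 in the DAXX-rescued line, 61.8 and 53.4 in H3.3 KO, 86.2 and 81.9 in the WT-rescued line, and 70.1 and 45.6 in the mutant-rescued line. Nsdhl was highest in the WT-rescued line, while for Msmo1 that line overlapped Daxx-/-.

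Tm7sf2 was at 9.43 and 12.1 CPM in Daxx-/-, 11.2 and 20.2 in the DAXX-rescued line, 17.7 and 14.5 in H3.3 KO, 19.5 and 19.5 in the WT-rescued line, and 16.5 and 17.8 in the mutant-rescued line. Ebp, a sterol isomerase, was at 34.9 and 26.9 CPM in Daxx-/-, 46.4 and 38.8 in the DAXX-rescued line, 21.1 and 24.0 in H3.3 KO, 33.0 and 32.8 in the WT-rescued line, and 40.9 and 26.7 in the mutant-rescued line. Both H3.3 KO libraries were the lowest for Ebp, and the Daxx-/- libraries were among the lowest for Tm7sf2. Dhcr7, which completes cholesterol from its last precursor, was at 127 and 141 CPM in Daxx-/-, 118 and 146 in the DAXX-rescued line, 87.7 and 53.2 in H3.3 KO, 105 and 104 in the WT-rescued line, and 75.7 and 59.9 in the mutant-rescued line. All 6 libraries of the H3.3 lines were below all 4 of the Daxx lines, which differ from them in strain and derivation. The share of all genes that separate in this way was not counted. Sc5d ranged from 21.5 to 40.2 CPM.

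Among the regulators, Srebf1, which encodes SREBP-1, was at 186 and 193 CPM in Daxx-/-, 174 and 175 in the DAXX-rescued line, 119.9 and 97.7 in H3.3 KO, 120.0 and 111 in the WT-rescued line, and 104 and 95.4 in the mutant-rescued line. Srebf2, which encodes SREBP-2, was at 434 and 539 CPM in Daxx-/-, 369 and 409 in the DAXX-rescued line, 286 and 245 in H3.3 KO, 309.6 and 334 in the WT-rescued line, and 279 and 277 in the mutant-rescued line. Both genes were lower in every H3.3 line library than in every Daxx line library. How many of all genes separate in this way was not counted, and these lines differ in strain and derivation. Insig1 was at 319.7 and 439.9 CPM in Daxx-/-, 258 and 336 in the DAXX-rescued line, 356 and 249.98 in H3.3 KO, 426 and 370.1 in the WT-rescued line, and 271 and 220.0 in the mutant-rescued line. Stard4 was at 83.6 and 108 CPM in Daxx-/-, 54.3 and 77.2 in the DAXX-rescued line, 37.1 and 24.5 in H3.3 KO, 52.8 and 50.5 in the WT-rescued line, and 34.7 and 32.3 in the mutant-rescued line. Stard4 too was lower in every H3.3 line library than in every Daxx line library, the nearest being at 52.8 and 54.3 CPM. Insig1 overlapped between the knockouts.

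For fatty acids, Acly was at 705 and 432 CPM in Daxx-/-, 637 and 588 in the DAXX-rescued line, 807 and 555 in H3.3 KO, 784 and 683 in the WT-rescued line, and 631 and 447 in the mutant-rescued line. Acaca, the acetyl-CoA carboxylase that makes malonyl-CoA, was at 190.2 and 107 CPM in Daxx-/-, 161 and 142 in the DAXX-rescued line, 125 and 130.2 in H3.3 KO, 114 and 109 in the WT-rescued line, and 156 and 96.3 in the mutant-rescued line. Fasn, the fatty acid synthase, was at 1002 and 484 CPM in Daxx-/-, 1219 and 1031 in the DAXX-rescued line, 713 and 711 in H3.3 KO, 643 and 555 in the WT-rescued line, and 771 and 566 in the mutant-rescued line. All of these spread widely between the replicates of Daxx-/-, which for Acaca spanned every library but replicate 2 of the mutant-rescued line. Scd1, a stearoyl-CoA desaturase, was at 609 and 646 CPM in Daxx-/-, 516 and 821 in the DAXX-rescued line, 373 and 289 in H3.3 KO, 585 and 517 in the WT-rescued line, and 512 and 437 in the mutant-rescued line. Scd2 was at 2049 and 1382 CPM in Daxx-/-, 1984 and 2248 in the DAXX-rescued line, 1094 and 760.5 in H3.3 KO, 1629 and 1378 in the WT-rescued line, and 1529 and 864 in the mutant-rescued line. The H3.3 KO libraries were the lowest for Scd1, and for Scd2 they overlapped the mutant-rescued line. Elovl6, a fatty acid elongase, ranged from 251 to 364 CPM.

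**Figure D2:**
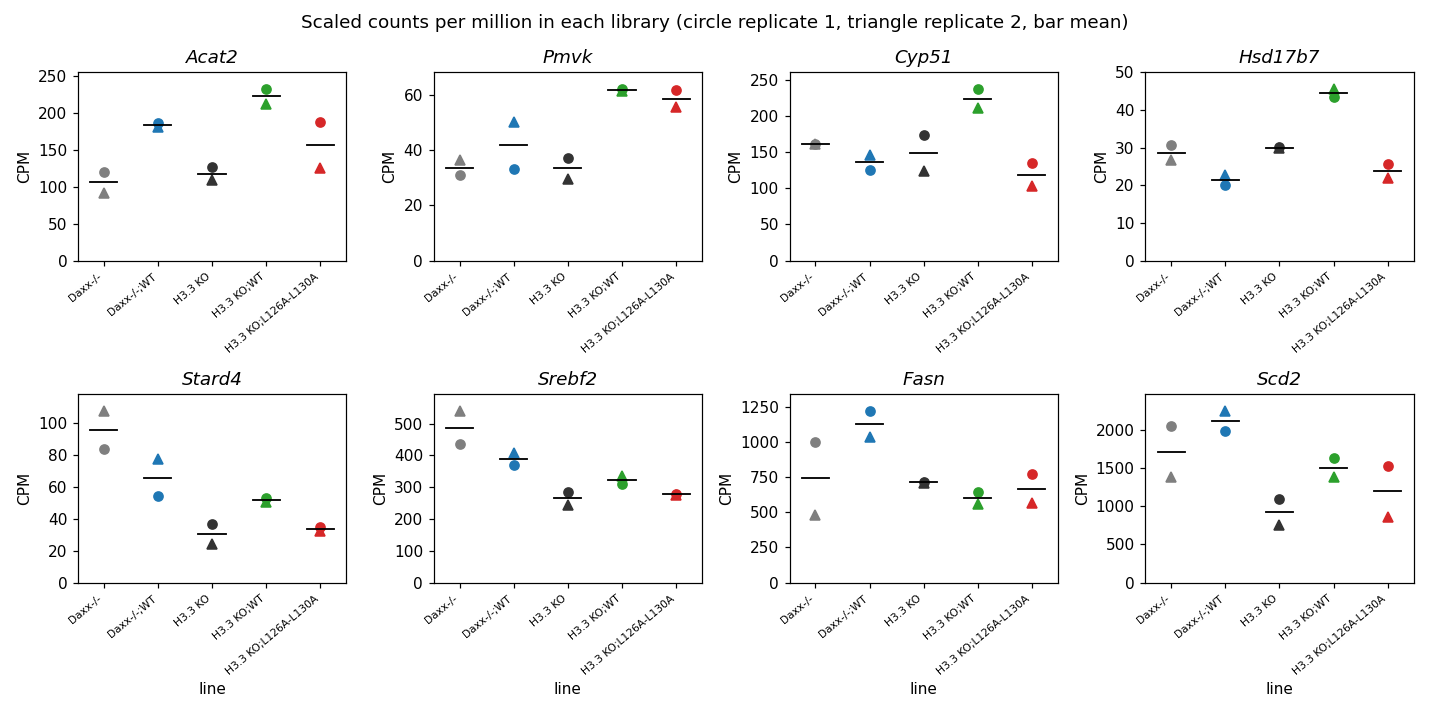
Scaled CPM (vertical axes, from 0) of 8 genes in the 5 lines (horizontal axes), with circles for replicate 1, triangles for replicate 2 and bars for the mean. Hsd17b7 is highest in both WT-rescued libraries (43.5 and 45.6), and Fasn in Daxx-/- spans 484 to 1002.

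Each comparison was tested by edgeR's quasi-likelihood test over all 13201 genes, and a gene was called where its fold change was at least 2 and its p, adjusted by Benjamini-Hochberg, was under 0.05. Comparisons with a line in common share its libraries and are not independent. The 27 genes are not independent of each other either: in H3.3 KO, 25 of 27 were lower in replicate 2. A count of them beside the share of all genes is a description and no test of the list.

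The DAXX-rescued line was compared with Daxx-/- to ask which genes differ once the cells carry the Daxx transgene. Acat2 (log2 0.79, SE 0.21) and Fasn (log2 0.60, SE 0.30) had the highest values and Fdft1 (log2 −0.65, SE 0.18) and Stard4 (log2 −0.54, SE 0.23) the lowest, and none passed. With 1 library left out, Fasn ran from 0.161 to 1.22 and Stard4 from −0.82 to −0.306. By edgeR 0 of 27 genes were called, against 1.08% of all genes tested, while 4 (1 higher, 3 lower) had an unadjusted p under 0.05 against 21.8%. DESeq2 and limma called 0, against 4.02% and 1.82% of all genes, and at any fold DESeq2 gave 2 (Acat2 and Fdft1), against 8.78%, and limma 0, against 2.53%. The median log2 fold change was 0.09 against −0.02 over all genes. Of the 27 genes 16 were positive, against 6328 of all 13201. By role the median was 0.28 for the mevalonate enzymes, −0.06 for the sterol enzymes, −0.34 for the regulators and 0.15 for the fatty acid enzymes. Without replicate 1 of Daxx-/-, Fasn was called (log2 1.22, edgeR Benjamini-Hochberg adjusted p 0.0202, higher in 2 of 2 libraries), its adjusted p being 0.0808 to 0.485 over the alternatives that keep all libraries. In that fit 8.26% of all genes were called, and 9 of 27 had an unadjusted p under 0.05 against 35.2% of all genes. The median was −0.02 without replicate 2 of the DAXX-rescued line and 0.0292 without replicate 2 of Daxx-/-, but 0.159 without replicate 1 of Daxx-/-.

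Wild-type H3.3 in H3.3 KO cells was compared with the knockout to ask which genes differ once the cells carry this transgene. The highest values were those of Acat2 (log2 0.92, SE 0.21) and Pmvk (log2 0.88, SE 0.21), and the lowest those of Fasn (log2 −0.25, SE 0.30, and −0.359 to −0.145 with 1 library left out) and Acaca (log2 −0.19, SE 0.28). By edgeR 0 of 27 were called, against 0.250% of all genes, and the smallest Benjamini-Hochberg adjusted p among them was 0.148 (Acat2, higher in 2 of 2 libraries). At an unadjusted p under 0.05 there were 15, all higher, against 13.3% of all genes. That count was 3 (7.53% of all genes) without replicate 2 of H3.3 KO and 5 (7.18% of all genes) without replicate 1 of the WT-rescued line. DESeq2 and limma also called 0, against 1.61% and 0.417% of all genes, and at any fold DESeq2 gave 2 (Acat2 and Pmvk), against 2.91%, and limma 0, against 0.447%. Of the 27 genes 24 were positive, against 6841 of all 13201. The median was 0.55 against 0.02 over all genes, and without replicate 2 of H3.3 KO it was 0.36. By role it was 0.69 for the mevalonate enzymes, 0.55 for the sterol enzymes, 0.34 for the regulators and 0.05 for the fatty acid enzymes, of which Scd1 (log2 0.73, SE 0.22) and Scd2 (log2 0.70, SE 0.29, and 0.457 to 0.983 with 1 library left out) were the highest.

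The mutant H3.3 was compared with the same H3.3 KO libraries. Pmvk (log2 0.81, SE 0.21) and Ebp (log2 0.58, SE 0.23) had the highest values, and Acly (log2 −0.34, SE 0.27) and Hsd17b7 (log2 −0.34, SE 0.16) the lowest. With 1 library left out, Ebp ran from 0.248 to 0.861, Acly from −0.603 to −0.0404 and Hsd17b7 from −0.45 to −0.223. By edgeR 0 of 27 were called, against 0.788% of all genes, and 3, all higher, had an unadjusted p under 0.05 against 16.9%. DESeq2 and limma called 0, against 3.36% and 1.31% of all genes, and at any fold DESeq2 gave 1 (Pmvk), against 5.79%, and limma 0, against 1.62%. The unadjusted count was 5 (12.8% of all genes) without replicate 1 of H3.3 KO and 7 (18.2% of all genes) without replicate 2 of the mutant-rescued line. The median was 0.01 against 0.03 over all genes, and 14 of 27 were positive, against 7014 of all 13201. By role the median was 0.425 for the mevalonate enzymes (5 of 6 positive), −0.02 for the sterol enzymes, −0.03 for the regulators and −0.05 for the fatty acid enzymes. The median over all 27 was 0.21 without replicate 1 of H3.3 KO and 0.117 without replicate 2 of the mutant-rescued line, but −0.0921 without replicate 2 of H3.3 KO, −0.121 without replicate 1 of the mutant-rescued line and −0.06 where libraries were scaled by library size alone.

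Set directly against wild-type H3.3, the mutant line had its lowest values at Cyp51 (log2 −0.92, SE 0.20) and Hsd17b7 (log2 −0.91, SE 0.16), whose promoter stretches are printed above, and its highest at Sqle (log2 0.42, SE 0.25) and Acaca (log2 0.18, SE 0.28). With 1 library left out, Sqle ran from 0.125 to 0.67 and Acaca from −0.211 to 0.482. Hsd17b7 met neither threshold (edgeR quasi-likelihood, Benjamini-Hochberg adjusted p 0.0524, log2 −0.91 and so under 2-fold, lower in 2 of 2 libraries), and over the alternative settings its adjusted p ran from 0.000177 to 0.0929. For Cyp51 the edgeR Benjamini-Hochberg adjusted p was 0.0934 at log2 −0.92, lower in 2 of 2 libraries, with 0.0017 to 0.103 over the alternatives. By edgeR 0 of 27 were called, against 0.515% of all genes, and 11, all lower, had an unadjusted p under 0.05 against 12.3%. DESeq2 and limma called 0, against 2.45% and 0.727% of all genes, and at any fold DESeq2 gave 3 (Fdps, Cyp51 and Hsd17b7), against 3.62%, and limma 1 (Hsd17b7), against 0.765%. The unadjusted count was 3 (8.13% of all genes) without replicate 1 of the WT-rescued line, 6 (5.70%) without its replicate 2 and 4 (14.7%) without replicate 2 of the mutant-rescued line. Of the 27 genes 4 were positive, against 6647 of all 13201. The median was −0.33 against 0.00 over all genes. It was −0.60 without replicate 1 of the mutant-rescued line and −0.22 without its replicate 2. The count of positive genes then was 1 (47.4% of all genes) and 8 (49.7% of all genes). By role the median was −0.36 for the mevalonate enzymes, −0.47 for the sterol enzymes, −0.42 for the regulators and −0.20 for the fatty acid enzymes.

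**Figure D3:**
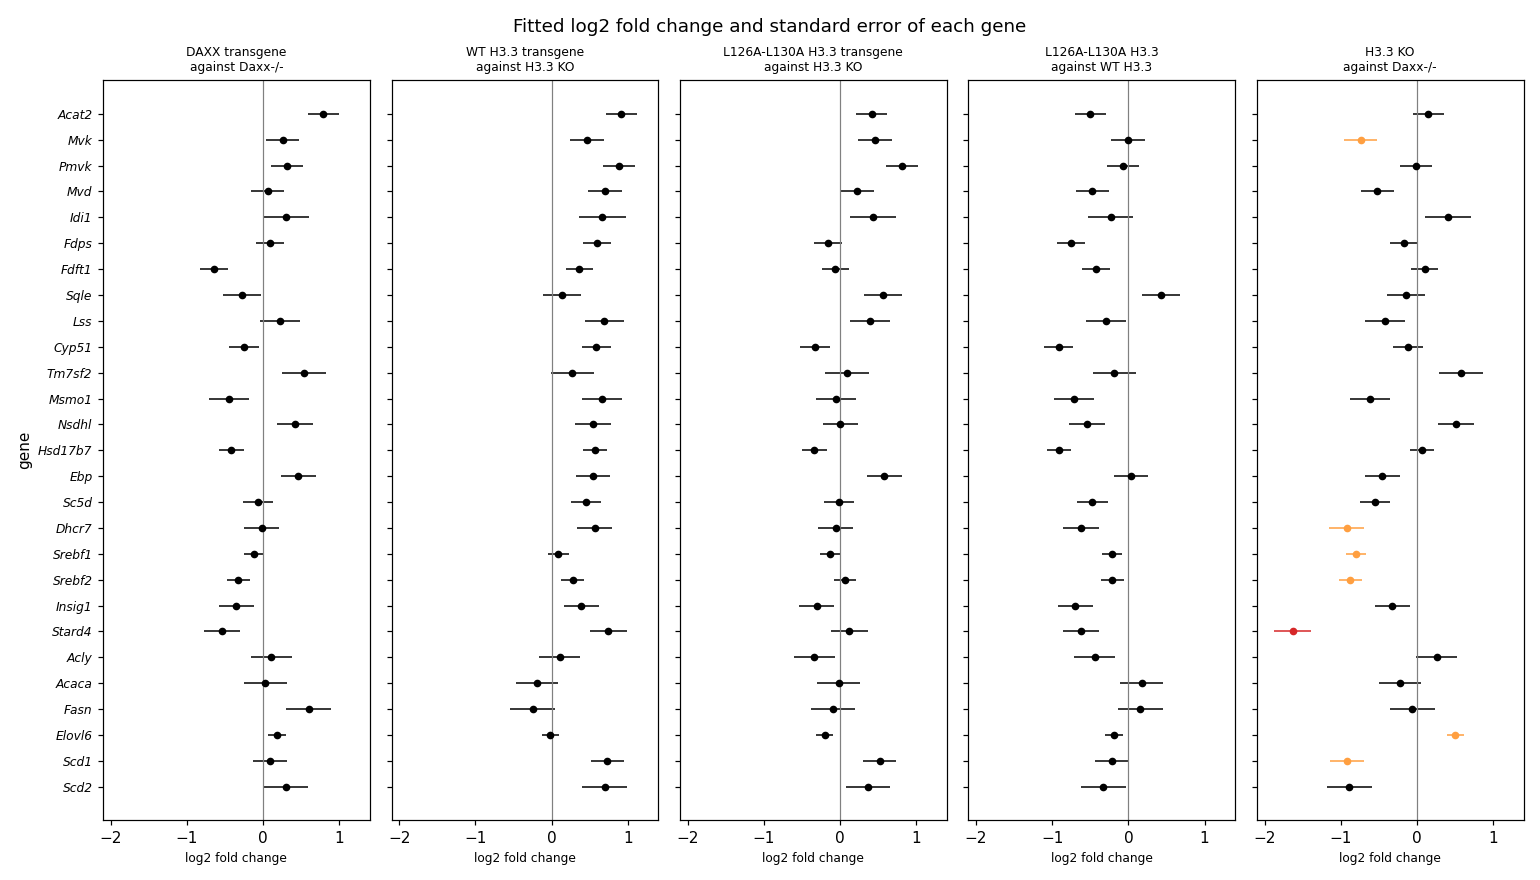
Fitted log2 fold change (horizontal axes) of each of the 27 genes (vertical axis) in 5 comparisons, with bars of 1 SE, red for genes called, orange for an adjusted p under 0.05 at less than 2-fold and black for the rest. Stard4 in H3.3 KO against Daxx-/- (−1.63) is the only red point.

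Between the knockouts, Stard4 fell in H3.3 KO against Daxx-/- (log2 −1.63, SE 0.24, edgeR quasi-likelihood, Benjamini-Hochberg adjusted p 0.00293, lower in 2 of 2 libraries), and over the alternatives its adjusted p ran from 1.98e-08 to 0.0265. It was the only 1 of 27 called, against 11.7% of all genes tested, and DESeq2 and limma also called 1, against 1712 and 1457 of all 13201 genes. Strain and derivation differ between these lines, as stated above. At an adjusted p under 0.05 and any fold there were 7, against 23.7% of all genes. These were Stard4, Dhcr7 (log2 −0.92, SE 0.23), Scd1 (log2 −0.92, SE 0.22), Srebf2 (log2 −0.88, SE 0.15), Srebf1 (log2 −0.80, SE 0.14) and Mvk (log2 −0.74, SE 0.22), which were lower, and Elovl6 (log2 0.51, SE 0.12), which was higher. Dhcr7 (−1.33 to −0.605 with 1 library left out) had an adjusted p of 0.0772 where only the 2 lines were fitted. Without replicate 2 of H3.3 KO, Dhcr7, Scd1, Srebf2 and Srebf1 were not under 0.05, nor were Dhcr7 and Scd1 without replicate 2 of Daxx-/-, and Mvk and Elovl6 were not followed in this way. At an unadjusted p under 0.05 there were 11 (1 higher, 10 lower) against 38.0% of all genes, and 6 without replicate 2 of H3.3 KO against 26.9%. The highest fold changes were those of Tm7sf2 (log2 0.58, SE 0.29) and Nsdhl (log2 0.51, SE 0.24, and 0.275 to 0.788 with 1 library left out). Of the 27 genes 8 were positive, against 6480 of all 13201. The median was −0.22 against −0.02 over all genes. It was −0.44 without replicate 2 of Daxx-/- and −0.374 without replicate 1 of H3.3 KO, but −0.122 without replicate 1 of Daxx-/- and −0.0789 without replicate 2 of H3.3 KO. By role it was −0.09 for the mevalonate enzymes, −0.15 for the sterol enzymes, −0.84 for the regulators and −0.14 for the fatty acid enzymes. The count called was 2 without replicate 1 of Daxx-/- (Srebf2 and Stard4), 3 without its replicate 2 (Mvk, Stard4 and Scd2) and 3 without replicate 1 of H3.3 KO (Dhcr7, Stard4 and Scd1), with 2116, 1282 and 945 of all 13201 genes called in those fits.

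Whether the DAXX effect differed from an H3.3 effect was tested directly. The Daxx and H3.3 lines differ in strain and derivation, so those cannot be told apart from the transgene in this difference. For the DAXX effect minus that of wild-type H3.3, edgeR called 0 of 27 against 0.0455% of all genes, limma called 0 against 0.0227%, and DESeq2 called 2 (Fdft1 and Stard4) against 1.98% of all genes. At an unadjusted p under 0.05 there were 7 against 13.9%. Stard4 (log2 −1.29, SE 0.33), Msmo1 (log2 −1.11, SE 0.37) and Fdft1 (log2 −1.01, SE 0.25) had the lowest values of this difference. At any fold DESeq2 gave 3 (Fdft1, Stard4 and Hsd17b7), against 2.63% of all genes, and limma 0, against 0.0227%. Hsd17b7 was at log2 −0.99 (SE 0.22). Against the mutant's effect, edgeR, DESeq2 and limma called 0 of 27, against 0.0227%, 1.24% and 0.0227% of all genes, and 3 had an unadjusted p under 0.05 against 11.2%.

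The replicates of a line were then compared gene by gene, as replicate 2 minus replicate 1 in log2(CPM + 1). In H3.3 KO, 25 of 27 genes were lower in replicate 2, with a median of −0.37. In the mutant-rescued line it was 26 of 27, with a median of −0.33, and in the WT-rescued line 25 of 27, with a median of −0.11. The Daxx lines were mixed, at 14 of 27 lower and a median of −0.12 in Daxx-/- and 8 of 27 lower and a median of 0.16 in the DAXX-rescued line. Over all genes tested these medians lay between −0.01 and 0.01 in the 5 lines. The labels name no batch, and by the labels replicates of different lines share only a number.

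In Daxx-/-, 1 of 27 genes was at least 2-fold apart between replicates, against 9.96% of all genes, and it was Fasn (log2 −1.05). In the DAXX-rescued line it was 0 of 27 against 2.23%, with Msmo1 furthest apart (log2 0.81). H3.3 KO had 0 against 2.14%, with Lss at −0.76, and the WT-rescued line had 0 against 0.629%, with Idi1 at −0.32. The mutant-rescued line had 0 against 5.10%, with Scd2 at −0.82. These counts describe pairs of libraries with no test. Within Daxx-/- the role groups went apart: the median difference was −0.64 for the fatty acid enzymes and 0.34 for the regulators.

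**Figure D4:**
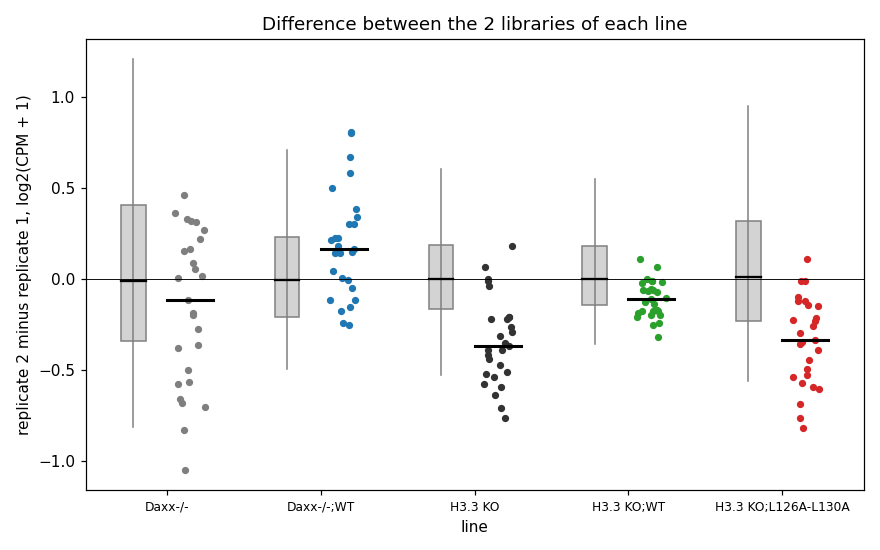
Replicate 2 minus replicate 1 in log2(CPM + 1) (vertical axis) within each of the 5 lines (horizontal axis), with points for the 27 genes, a thick bar for their median, and grey boxes and whiskers for the quartiles and the 5 to 95% range of all genes tested. In H3.3 KO and the mutant-rescued line the medians are −0.37 and −0.33, and in the WT-rescued line the points lie between −0.32 and 0.11.

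Markers of other cell types differed between replicates, with no direction common to all lists. The 4 neuroectoderm markers, of which Tubb3 was the most abundant in every library, summed to 122 and 42.9 CPM in Daxx-/-, 219 and 91.7 in the DAXX-rescued line, 74.3 and 41.8 in H3.3 KO, 83.8 and 74.0 in the WT-rescued line, and 75.8 and 47.4 in the mutant-rescued line. The sum was lower in replicate 2 of all 5 lines through Tubb3. Without Tubb3 it was 2.77 and 3.99 CPM in Daxx-/-, 4.06 and 4.77 in the DAXX-rescued line, 2.89 and 8.45 in H3.3 KO, 8.57 and 11.4 in the WT-rescued line, and 6.14 and 9.96 in the mutant-rescued line, higher in replicate 2 throughout. At most 1 of the 4 was at 0 counts in any library. The 7 primitive endoderm markers summed to 8.1 and 22.8 CPM in Daxx-/- and to at most 13.7 CPM elsewhere. The 6 fibroblast markers summed to 27.6 and 40.9 CPM in Daxx-/- and to between 4.25 and 17.4 elsewhere, with Thy1 the most abundant and 1 to 4 of 6 at 0 counts. Without Thy1 the sum was 4.05 and 4.88 CPM in Daxx-/-, which overlapped the WT-rescued line (3.56 and 4.47). In the remaining lines it was then between 0.743 and 3.23. The 4 mesoderm markers, with Eomes the most abundant, summed to between 8.66 and 24.9 CPM. The 5 trophoblast markers, with Tcfap2c the most abundant and 0 to 2 of 5 at 0 counts, summed to 37.3 and 66.1 CPM in Daxx-/-, 57.4 and 60.3 in the DAXX-rescued line, 50.9 and 56.95 in H3.3 KO, 96.7 and 106.8 in the WT-rescued line, and 69.2 and 100.9 in the mutant-rescued line. Replicate 2 was the higher in all 5 lines, and the libraries of both H3.3-rescued lines lay above both of H3.3 KO. Neither pattern held in full without Tcfap2c. The sum was then 4.19 and 3.42 CPM in H3.3 KO, 4.57 and 8.13 in the WT-rescued line and 1.21 and 9.09 in the mutant-rescued line. In Daxx-/- it was 1.61 and 13.1, and in the DAXX-rescued line 0.942 and 3.14. In bulk RNA, fewer cells of a type and less RNA per cell cannot be told apart. The part of these markers in the values of the synthesis genes was not tested.

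The 63 tested genes of 5 further lists (other sterol synthesis, SREBP processing, sterol uptake, sterol efflux and other fatty acid or glycerolipid genes) were counted in the same fits. With DAXX their median log2 fold change was −0.29, and 2 were called, against 1.08% of all genes, both lower: Abca1, a sterol exporter (log2 −2.07, SE 0.28), and Mid1ip1, an activator of acetyl-CoA carboxylase (log2 −1.78, SE 0.19). With wild-type H3.3 the median was 0.09 and edgeR called 0, with 11 at an unadjusted p under 0.05 (13.3% of all genes), 2 called by DESeq2 (1.61%) and 1 by limma (0.417%). With mutant H3.3 the median was −0.01 and edgeR called 1, lower (0.788% of all genes), with 12 at an unadjusted p under 0.05 (16.9%), 2 called by DESeq2 (3.36%) and 1 by limma (1.31%). Mutant against wild-type H3.3 gave a median of −0.13 and 0 called by edgeR, with 13 at an unadjusted p under 0.05 (12.3% of all genes), 2 called by DESeq2 (2.45%) and 0 by limma (0.727%). By list that median was 0.04 for other sterol synthesis, 0.06 for SREBP processing, −0.275 for sterol uptake, 0.89 for sterol efflux and −0.215 for the fatty acid and glycerolipid genes. Between the knockouts the median was −0.22 and 7 were called lower and 0 higher, against 11.7% of all genes, the largest being Abcg1, a sterol exporter (log2 −2.90, SE 0.44), and Pnpla3, a lipid droplet protein (log2 −2.32, SE 0.30).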

How the data were processed

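RNA-seq of 10 libraries (5 mESC lines, 2 libraries each) was analysed from a deposited table of expected counts per gene. The deposited expected counts were made by the authors with Bowtie and RSEM on mm9, per the submitters' notes and methods. Versions and annotation are not given in the sources used here. The table is named for another unit, but its column totals differ (15463625 to 21396585), so it was used as counts. Counts were rounded, scaled by median-of-ratios factors (0.936 to 1.04) and filtered at 1 CPM in 2 libraries. edgeR 4.0.16 (R 4.3.3) fitted all libraries in 1 quasi-likelihood model with line means. DESeq2 1.42.0 and limma 3.58.1 on log2(CPM + 1) were alternatives, as were TMM factors, library size alone, other filters, a fit of the compared lines only, a block on replicate number and leaving out each library. The fit was tested on simulated data.

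Named genes were the members called, the 2 highest and 2 lowest fold changes of each comparison, the largest replicate difference of each line, and fixed examples. Members and lists were chosen with earlier results of these data known. Promoters are from RefSeq and transcripts from GENCODE, both on GRCm38 and not on the build of the counts. Some called genes of the further lists are counted but not otherwise reported here.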

Additional observations from a re-analysis of the deposited data

How the results depend on the processing

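Under the alternatives listed in the methods that keep all libraries, 54 counts of genes called had the same value, and 45 medians and 20 replicate differences moved by less than the spread between replicates, while 464 values of the single genes followed (those called, highest or lowest, and fixed examples, not all 27) kept their sign and stayed called or not called. At any fold, an adjusted p under 0.05 was gained in at least 1 of these alternatives by Acat2 and Fdft1 with DAXX. With wild-type H3.3 it was gained by Acat2, Pmvk and Scd1, and with mutant H3.3 by Pmvk. In mutant against wild-type H3.3 it was gained by Fdps, Cyp51 and Hsd17b7. Fdps was not among the genes followed, and its gain is from DESeq2 (adjusted p 0.00911). Between the knockouts it was gained by Scd2 and lost by Dhcr7. Of the medians that stayed within that spread, that of mutant H3.3 against H3.3 KO (0.01) ran from −0.0586 to 0.0136, that with DAXX (0.09) was 0.0546 at a mean CPM of at least 5, and that between the knockouts (−0.22) was −0.12 with library size alone. With library size alone the replicate difference was 0.00857 in Daxx-/- (−0.12), 0.254 in the DAXX-rescued line (0.16) and −0.0444 in the WT-rescued line (−0.11), the medians over all genes in these lines then being 0.0989, 0.0776 and 0.0575. At a mean CPM of at least 5 that of Daxx-/- was −0.0253. Exceptions were the count called between the knockouts, 7 at any fold, and the count for the DAXX effect minus the wild-type H3.3 effect, 2 by DESeq2. Fasn in H3.3 KO against Daxx-/- (log2 −0.06) turned positive with a replicate block (0.00774), with library size alone (0.044) and in limma with a pseudocount of 1 (0.0328) or 0.1 (0.033). Blocking on replicate number, which has only 2 values, left the counts called as they were (0, 0, 0, 0 and 1). Over all genes, the replicate differences of 2 lines had a Pearson correlation of 0.57 for the DAXX-rescued line with Daxx-/-, 0.28 for the WT-rescued line with H3.3 KO, 0.069 for the mutant-rescued line with H3.3 KO, 0.42 for the mutant-rescued with the WT-rescued line and −0.044 for H3.3 KO with Daxx-/-. Leaving out each library in turn, the lone remaining library of a line being taken to vary like the others, gave 0 to 1 called with DAXX and 1 to 3 between the knockouts. Medians ran from −0.0181 to 0.159 with DAXX, 0.357 to 0.67 with wild-type H3.3, −0.12 to 0.21 for mutant H3.3 against H3.3 KO, −0.60 to −0.22 for mutant against wild-type H3.3, and −0.44 to −0.0789 between the knockouts. Signs turned for Sqle (−0.575 to 0.0947) and Scd1 (−0.29 to 0.39) with DAXX, for Srebf1 (−0.0545 to 0.241) and Sqle (−0.0299 to 0.327) with wild-type H3.3, and for Srebf1 (−0.267 to 0.0288), Srebf2 (−0.0398 to 0.185), Fasn (−0.33 to 0.12) and Scd2 (−0.0987 to 0.725) with mutant H3.3. They also turned for Acaca (−0.21 to 0.48), Fasn (−0.082 to 0.363) and Scd2 (−0.8 to 0.0252) in mutant against wild-type H3.3 and for Sqle (−0.44 to 0.22) and Fasn (−0.49 to 0.56) between the knockouts. The counts at an unadjusted p under 0.05 were followed across settings only after the data were seen. For DAXX that count of 4 became 8 with the block (30.6% of all genes) and 2 with the compared lines alone (12.6%), and for mutant H3.3 against H3.3 KO the 3 became 7 with the block (24.3%) and 5 with library size alone (17.0%). The cause was not tested. With 2 libraries a line, a gene that was not called is not shown to be unchanged.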
